A study of Mus musculus with 2 samples.

Results

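Neuroblasts, the young migrating neurons that arise next to the lateral ventricles, formed a small population in primary cultures set up to make ependymal cells. The cells described here are those that the deposited cell metadata name Neuroblasts: 81 of 12028 cells in replicate 1 and 123 of 4373 in replicate 2, or 204 of 16401 in all. Each of the 2 libraries came from lateral ventricular walls of newborn mice (P0-P2), of substrain C57BL/6N in replicate 1 and C57BL/6J in replicate 2, with no transgene or drug named in the labels. How many mice went into a library is not stated in the labels. The cells grew in serum to confluence, the flasks were shaken overnight to detach other cell types, neurons among them, and serum was then withdrawn for 2 days before single-cell 3′ RNA sequencing. The study set out to profile the lineage that leads to multiciliated ependymal cells, so the neuroblasts lie outside its main question.

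In the mouse, neural stem cells of the ventricular wall give rise to transit-amplifying cells and these to neuroblasts, which still divide while they migrate towards the olfactory bulb and become inhibitory interneurons there. Dlx genes encode homeodomain transcription factors of this ventral lineage, Gad1 and Gad2 encode the enzymes that make the transmitter GABA, and Dcx encodes doublecortin, a microtubule-binding protein of migrating neurons. The dorsal part of the same wall gives rise to a smaller excitatory lineage that passes through an Eomes (Tbr2) stage, and oligodendrocyte precursors (OPCs) also arise from this wall.

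RefSeq promoter windows show where the marker genes start and which DNA letters lie there. Each runs from 250 bases before to 50 after the start of a transcript (GRCm38.p6), on the strand of the gene. They are given for the 3 markers and for Dlx6os1, the noncoding RNA of the Dlx5 and Dlx6 locus. The last is for Ccnb2, a gene of mitosis that differed between neuroblasts by cell cycle class. Capitals mark TAATTA, the core of many homeodomain binding sites, in the first 4 and TTTGAA (or TTCAAA, the same letters on the other strand), the core of the CHR element of cell cycle genes, in the last. The windows lie on chr2:71546705-71547004 (Dlx2, minus strand), chr2:22622077-22622376 (Gad2, plus strand), chrX:143933170-143933469 (Dcx, minus strand), chr6:6869484-6869783 (Dlx6os1, minus strand) and chr9:70421505-70421804 (Ccnb2, minus strand).
Dlx2: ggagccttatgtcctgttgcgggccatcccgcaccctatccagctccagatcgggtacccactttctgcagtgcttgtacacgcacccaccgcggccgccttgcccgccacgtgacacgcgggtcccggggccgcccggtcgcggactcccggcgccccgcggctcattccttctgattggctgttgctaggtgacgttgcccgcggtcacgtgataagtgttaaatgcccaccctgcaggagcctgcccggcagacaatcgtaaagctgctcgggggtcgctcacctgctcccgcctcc
Gad2: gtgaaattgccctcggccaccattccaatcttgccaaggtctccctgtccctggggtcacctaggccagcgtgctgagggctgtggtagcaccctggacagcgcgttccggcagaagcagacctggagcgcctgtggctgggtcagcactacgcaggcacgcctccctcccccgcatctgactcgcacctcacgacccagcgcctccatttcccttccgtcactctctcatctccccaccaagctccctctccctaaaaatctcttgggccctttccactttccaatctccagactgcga
Dcx: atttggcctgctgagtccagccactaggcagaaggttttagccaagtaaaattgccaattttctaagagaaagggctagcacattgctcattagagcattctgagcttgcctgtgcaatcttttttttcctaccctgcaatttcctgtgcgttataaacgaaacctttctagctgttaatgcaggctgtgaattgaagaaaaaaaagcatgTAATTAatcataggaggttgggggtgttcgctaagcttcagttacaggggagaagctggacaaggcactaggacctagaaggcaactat
Dlx6os1: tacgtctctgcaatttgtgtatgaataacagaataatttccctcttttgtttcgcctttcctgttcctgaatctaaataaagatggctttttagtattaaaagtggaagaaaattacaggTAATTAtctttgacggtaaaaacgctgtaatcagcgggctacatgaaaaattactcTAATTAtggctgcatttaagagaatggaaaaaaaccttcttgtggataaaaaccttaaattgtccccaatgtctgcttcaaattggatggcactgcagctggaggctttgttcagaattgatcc
Ccnb2: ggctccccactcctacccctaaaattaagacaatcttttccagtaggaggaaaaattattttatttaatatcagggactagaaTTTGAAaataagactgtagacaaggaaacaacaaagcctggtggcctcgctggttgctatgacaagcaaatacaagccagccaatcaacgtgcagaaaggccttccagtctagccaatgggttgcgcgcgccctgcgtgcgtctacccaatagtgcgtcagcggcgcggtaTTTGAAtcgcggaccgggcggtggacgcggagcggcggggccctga
The Dcx window held 1 TAATTA and the Dlx6os1 window 2, while those letters were not in the Dlx2 and Gad2 windows. Among all 32851 windows 1738 (5.29%) held TAATTA. In the list of 15 Dlx and GABA neuron genes, 10 had entries, with 13 windows, and 3 of the 13 (23.1%) held it. Counted by gene, these were 2 of the 10, Dlx6os1 and Sp8, against 1655 of all 27025 genes (6.12%). TTTGAA stood in 5878 windows (17.9%), in 18 of 24 windows (75%) of the G2 and M phase list and in 3 of 24 (12.5%) of the S phase list. Both motifs were searched on both strands and do not overlap each other in letters. A match describes the letters in the window and is not a binding measurement.

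The neuroblasts held few RNA molecules. Their median was 4591 UMIs (unique molecular identifiers, each standing for 1 captured RNA molecule) in replicate 1 and 5581 in replicate 2, against 12708 and 14409 over all cells of each library, and no other named population had a lower median. Summed over cells, the neuroblasts gave 403704 and 757495 UMIs, so that a gene at 0 UMIs could lie at up to 7.43 and 3.96 CPM (UMIs of a gene per 1000000 UMIs in the sum) by a floor of 3 counts. Their share of cells was 0.673% (exact Clopper-Pearson 95% interval 0.535 to 0.836) in replicate 1 and 2.81% (2.34 to 3.35) in replicate 2. With cells under 5000 UMIs set aside the shares were 0.260% and 1.63%. The libraries shared 13 cell barcodes, 1 of them belonging to a neuroblast. Library and substrain cannot be told apart here, and intervals cover counting error only.

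All 3 markers stood far above every other population in both libraries. Dlx2 (chromosome 2, 71543408 to 71546754 in mm10) reached 317 CPM in replicate 1 and 338 CPM in replicate 2, and its next highest population, the mid deuterosomal cells, reached 15 and 13.1 CPM. Gad2 (chromosome 2, 22622205 to 22693874) was at 156 and 226 CPM, with the cycling progenitors next at 2.12 and 1.23 CPM. Dcx (chromosome X, 143855842 to 143933311) was at 376.5 and 489.8 CPM, and OPCs came next at 53.2 and 85.5 CPM. The neuroblast and other libraries did not overlap for any of the 3 genes. Since the names were probably given from this same expression, the levels describe the named cells and are no independent evidence for the name.

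**Figure D1:**
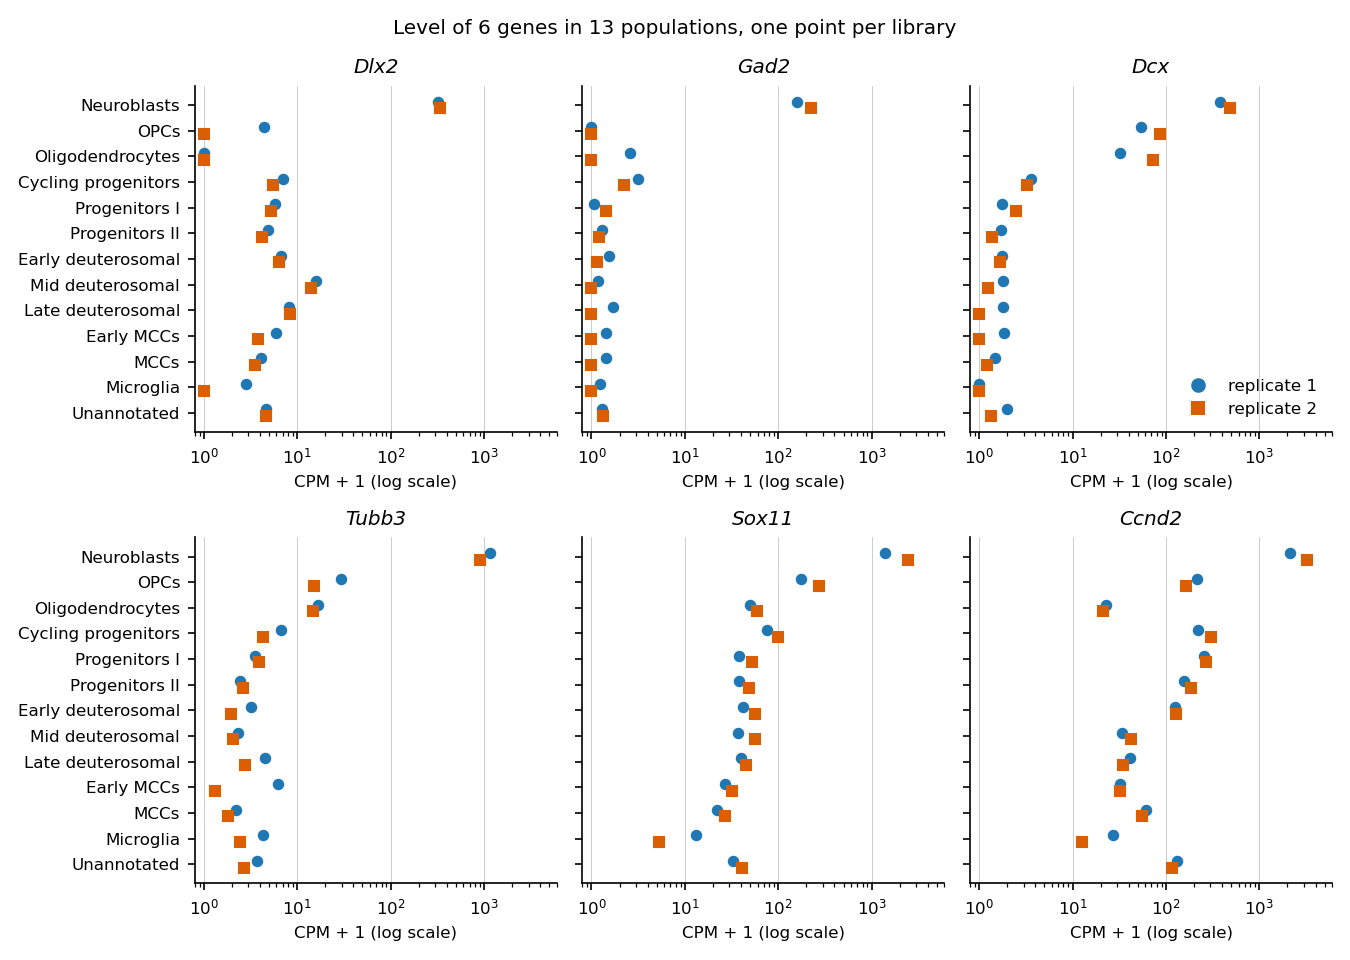
Level of 6 genes (CPM plus 1, log axis) in the summed cells of each of 13 populations, 1 point per library. Neuroblasts lie above every other population in both libraries for Dlx2, Gad2, Dcx, Tubb3, Sox11 and Ccnd2, with OPCs next for Dcx.

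The markers were also counted cell by cell, as far as depth allowed. These shares too are no independent evidence for the name. A UMI of Dlx2 was found in 53.1% of neuroblasts in replicate 1 and 59.3% in replicate 2, at their own depth. After each cell was thinned to 5000 UMIs, which left out 51 and 54 neuroblasts, the Dlx2 shares were 50% and 53.6%. For Gad2 the shares were 35.8% and 48.8% unthinned and 16.7% and 43.5% thinned, and for Dcx 67.9% and 78% unthinned and 40% and 56.5% thinned. The shares at 5000 UMIs are of the deeper cells only. Thinned to 2500 UMIs, which left out no neuroblast, the shares were 42.0% and 48.0% for Dlx2. They were 29.6% and 33.3% for Gad2 and 56.8% and 68.3% for Dcx. In microglia, which should lack these genes and had median depths of 13668 and 17034 UMIs, the unthinned shares were 2.42% and 0% for Dlx2, 0.346% and 0% for Gad2 and 0% for Dcx in both libraries. Dcx was less particular against OPCs, whose median depths were 12668 and 14199 UMIs. Unthinned, 32 of 68 (47.1%) and 22 of 34 OPCs (64.7%) had a UMI of it. Taking the 4 Dlx genes, Gad1 with Gad2, and Dcx as 3 sets, 28 of 81 (34.6%) and 59 of 123 neuroblasts (48.0%) had a UMI from all 3, and 15 (18.5%) and 11 (8.94%) had none. Of the OPCs 1 of 68 and 0 of 34 had a UMI from all 3, and 36 and 12 had none.

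Neuroblasts were compared with the equally weighted mean of the other 12 populations to see which genes set them apart. The fit was edgeR's quasi-likelihood test on summed counts, with library as a block, and adjusted p-values are Benjamini-Hochberg values over all genes tested. Values after ± are approximate standard errors (SE), the size of the log2 fold change divided by the square root of its F statistic. Log2 fold changes average the logs over populations and so differ from ratios of the CPM printed. Of 15877 genes tested, 5781 (36.4%) were called at 0.05, 2592 (16.3%) higher and 3189 (20.1%) lower in neuroblasts, so a share of a list near these percentages says little about it. The median log2 fold change of all genes was -0.332, and it was -0.216 with DESeq2 size factors and -0.122 in DESeq2. In 961 genes (6.05%) both neuroblast libraries lay above every other population, and in 329 (2.07%) below.

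The genes of the Dlx and GABA lineage stood higher as a group. All 15 on the list were higher in neuroblasts, with a median log2 fold change of 7.78, and 13 of the 15 lay above every other population in both libraries. Dlx1 was at 381.5 and 448.8 CPM, with the cycling progenitors next at 3.40 and 3.29 CPM (log2 fold change 8.01 ± 0.18 SE, adjusted p = 1.51e-21). Dlx6os1 was at 579.6 and 579.5 CPM (9.63 ± 0.28 on the log2 scale). Dlx6, which lies inside Dlx6os1 on the other strand, was at 14.9 and 46.2 CPM. It is not known here whether counting used strand, so reads of this pair may not be told apart, and DESeq2 did not call Dlx6 (adjusted p = 0.193). The zinc finger factors Sp8 and Sp9, which act in the same lineage, were at 101.6 and 170.3 CPM and at 247.7 and 212.5 CPM. Gad1, the other GABA-making enzyme, was at 47.1 and 37.0 CPM, and the vesicular GABA transporter gene Slc32a1 at 17.3 and 13.2 CPM. DESeq2 did not call Slc32a1 (adjusted p = 0.225).

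The machinery of a young neuron was present as well. Of 28 cytoskeleton and RNA-binding genes 26 were higher and none lower, with a median log2 fold change of 3.26, and of 20 lineage transcription factors 18 were higher (median 2.69). Tubb3, the neuronal beta-tubulin, was at 1154 CPM in replicate 1 and 900 CPM in replicate 2, against 28.3 and 14.3 CPM in OPCs, the next population. Its log2 fold change against the mean of the others was 8.11 ± 0.13 (SE, adjusted p = 1.64e-24). Sox11, a factor that switches on neuronal genes, was at 1377 and 2469 CPM against 174 and 275 CPM in OPCs (5.17 ± 0.09, adjusted p = 1.64e-24). Stmn1, which binds free tubulin, was at 6661 and 6022 CPM against 2646 and 1932 CPM in cycling progenitors. Insm1, a zinc finger factor of neuronal progenitors, was at 312 and 368 CPM (6.53 ± 0.38). For each of these genes both neuroblast libraries exceeded every other population. Tubb2b was not particular to neuroblasts, at 1786 and 1983 CPM against 2899 and 3639 CPM in oligodendrocytes, and Elavl3 was at 221 and 327 CPM against 222 and 247 CPM there.

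Genes for guidance and migration were mixed. Of 30 on the list 29 were tested, with 17 higher and 4 lower (median 1.73). Igfbpl1, a secreted-protein gene of young neurons, was at 803 and 784 CPM against 84 and 104 CPM in cycling progenitors (5.61 ± 0.13). Robo2, a receptor for Slit guidance proteins, was at 71.8 and 141 CPM. Cd24a, a surface protein of neuroblasts, was at 389 and 438 CPM but did not separate them, since mature multiciliated cells had 464 and 498 CPM. Cxcr4, a chemokine receptor, was among the 4 lower genes, at 14.9 and 6.6 CPM against 74 and 82 CPM in mid deuterosomal cells.

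Genes of a mature, signalling neuron were split. Of 18 synaptic genes 7 were higher and 1 was lower (median 0.667), and of 23 transmitter receptor and channel genes 20 were tested and 13 were higher (median 2.69). Nrxn3, a presynaptic adhesion protein, was at 277 and 335 CPM, above every other population (3.71 ± 0.17). Snap25, a protein of vesicle fusion, reached 27 and 28 CPM and Syn1, which coats synaptic vesicles, 12 CPM in both libraries. The AMPA receptor gene Gria2 was higher than the mean of the others (4.03 on the log2 scale) at 277 and 188 CPM, but OPCs had 431 and 782 CPM. Chrm3, a muscarinic receptor gene, had no UMI in neuroblasts.

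The cells also carried the transcripts of dividing cells. Against the mean of the other populations, 24 of 25 genes on the S phase list were higher and none lower (median 2.62), and 27 of 28 on the G2 and M phase list were higher (median 3.003), with Pttg1, the securin gene, lower. Mki67, a marker of dividing cells, was higher by 4.51 ± 0.32 on the log2 scale, and with G0 and G1 neuroblasts only the value was -0.996.

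Markers of other cell types were low. None of 15 astroglial genes was higher and 6 were lower (median -2.96), none of 13 ependymal genes was higher and 8 were lower (median -4.83), and none of the 11 microglial genes, all of which were tested, was called in either direction (median -0.799). Foxj1, the ciliary factor, was at 9.9 and 15.8 CPM against 865 and 1276 CPM in mid deuterosomal cells. Mcidas, Tmem212 and Spag17 had no UMI in neuroblasts. Summed over the list, microglial genes came to 19.8 and 10.6 CPM with 4 of 11 at 0, and all 6 endothelial genes were at 0. The OPC list differed: 4 of its 13 genes were higher than the mean of the other populations, 1 was lower, and its summed level was 763 and 280 CPM against 2983 and 2725 CPM in OPCs, with 4 of 13 at 0. The genes with the largest decreases in neuroblasts had no UMI there. Anxa3, an annexin, was at least 51.9-fold lower and Capg, an actin-capping protein, at least 47.6-fold lower than the mean of the other populations, by a floor of 3 UMIs over both libraries. Dnah6, an axonemal dynein heavy chain, was at least 39.5-fold lower. The Anxa3 call was lost after thinning to 2500 UMIs and the Dnah6 call with equal cell numbers per population (adjusted p = 0.0676).

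Neuronal subtype genes were read next, to see which kinds of neuron the cells could be on the way to. From the olfactory bulb list, 13 of 15 genes were tested and 6 were higher (median 1.34). Pax6, a factor of periglomerular interneurons and of dorsal progenitors, was at 163.5 and 237.6 CPM, with progenitors II next at 57 and 82 CPM (2.59 ± 0.20, adjusted p = 2.52e-10). Etv1 (Er81), found in interneurons of the bulb, was at 148.6 and 133.3 CPM against 57.7 and 83.5 CPM in OPCs. Tshz1, needed for migration within the bulb, was at 72 and 104 CPM, below oligodendrocytes at 141 and 181 CPM. Calb2, the calretinin gene, reached only 12.4 and 15.8 CPM. Th, the enzyme of dopamine synthesis, Scgn and Prokr2 had no UMI in neuroblasts of either library.

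From the striatal and lateral ganglionic eminence list, 9 of 15 were tested and 4 were higher (median -0.471). Meis2 was at 780 and 953 CPM against 427 and 424 CPM in progenitors II (1.6 ± 0.32, adjusted p = 0.00139). Bcl11b (Ctip2) was at 109 and 79.2 CPM (7.46 ± 0.29, adjusted p = 1.04e-16). Pbx3 was at 181 and 106 CPM. Foxp2 was at 52.0 and 22.4 CPM, and its call was lost after thinning to 5000 UMIs (adjusted p = 0.736). Genes of differentiated striatal projection neurons were not seen, since Drd1, Drd2, Penk, Tac1 and Isl1 had no UMI. Of the medial ganglionic eminence list, 7 of 10 genes were tested and 3 were higher, while its defining factors Nkx2-1, Lhx6 and Lhx8 had no UMI in any of the 81 and 123 cells, and neither had Sst or Npy.

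The dorsal, excitatory list was present at low level. Of 12 genes 9 were tested, 6 were higher and 1, Emx1, was lower (median 8.14). The Emx1 call was lost under several alternatives of the edgeR test. Among them were equal cell numbers (adjusted p = 0.443), G0 and G1 neuroblasts only (0.214) and DESeq2 size factors (0.0523). Eomes was at 57.0 and 97.7 CPM, against 0 and 3.3 CPM in cycling progenitors, the next population (9.32 ± 1.16, adjusted p = 0.000365). Neurod6 was at 32.2 and 27.7 CPM, Neurog2 at 24.8 and 21.1 CPM and Tbr1 at 12.4 and 23.8 CPM. These are factors of glutamatergic neurons and their precursors. DESeq2 did not call Neurod6 (adjusted p = 0.147) or Neurod1 (adjusted p = 0.207). The glutamate transporter gene Slc17a6 had 5.0 and 7.9 CPM, below the filter, and Slc17a7 had no UMI.

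**Figure D2:**
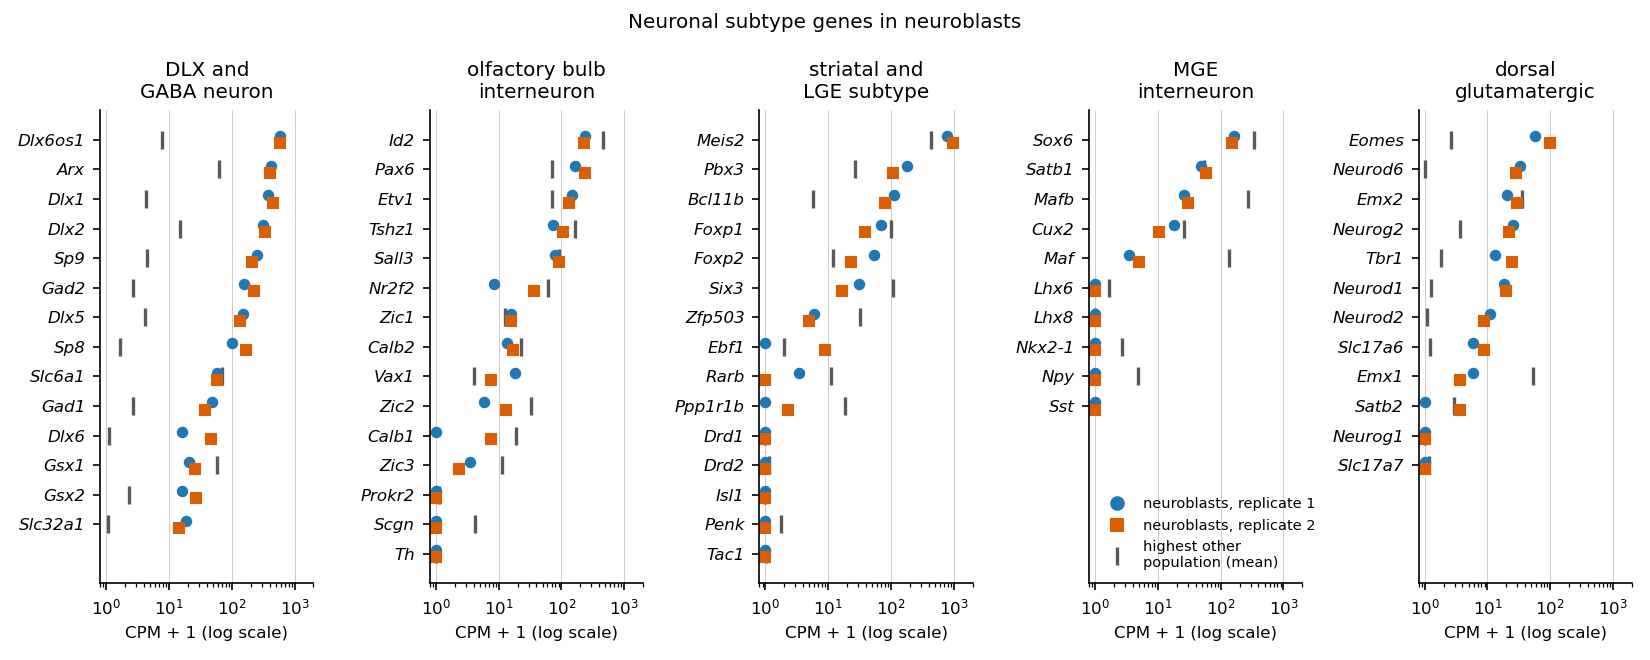
Level of neuronal subtype genes in neuroblasts (CPM plus 1, log axis; 1 point per library) in 5 panels, with a tick at the highest mean among the other populations. Most Dlx and GABA genes lie far above the ticks, olfactory bulb and striatal genes are split, the defining medial eminence genes sit at 0, and Eomes stands above its tick at 57.0 and 97.7 CPM.

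Few cells held UMIs of both Dlx and dorsal genes. The groups that follow were formed after the values were seen and carry no test. A UMI of Dlx1, Dlx2, Dlx5, Dlx6 or Dlx6os1 was found in 58 neuroblasts of replicate 1 (71.6%) and 92 of replicate 2 (74.8%). A dorsal gene without a Dlx UMI was found in 8 (9.88%) and 22 (17.9%), and a UMI of Pdgfra, Cspg4, Sox10 or Olig1 without a Dlx UMI in 11 (13.6%) and 8 (6.50%). Of all 204 cells, 7 held both Dlx and dorsal UMIs, 10 Dlx and OPC-gene UMIs, and 8 none of the 3 kinds. Sums over both libraries showed how the groups differed in genes that did not define them. The 150 cells with a Dlx UMI had 264 CPM of Gad2, 202 CPM of Sp8 and 175 CPM of Etv1. The 30 cells with a dorsal gene and no Dlx UMI had 38.8 CPM of Gad2, no UMI of Sp8 (at most 23.8 CPM by the exact Poisson interval) and 6.46 CPM of Etv1, yet 614 CPM of Dcx, 905 CPM of Tubb3 and 233 CPM of Pax6. The 19 cells with an OPC gene and no Dlx UMI had 62.4 CPM of Dcx and 93.6 CPM of Tubb3, no UMI of Gad2 (at most 28.8 CPM), and 702 CPM of Sox11. The low neuronal gene levels in these 19 cells stand against their name. Their median depth was 6413 UMIs.

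**Figure D3:**
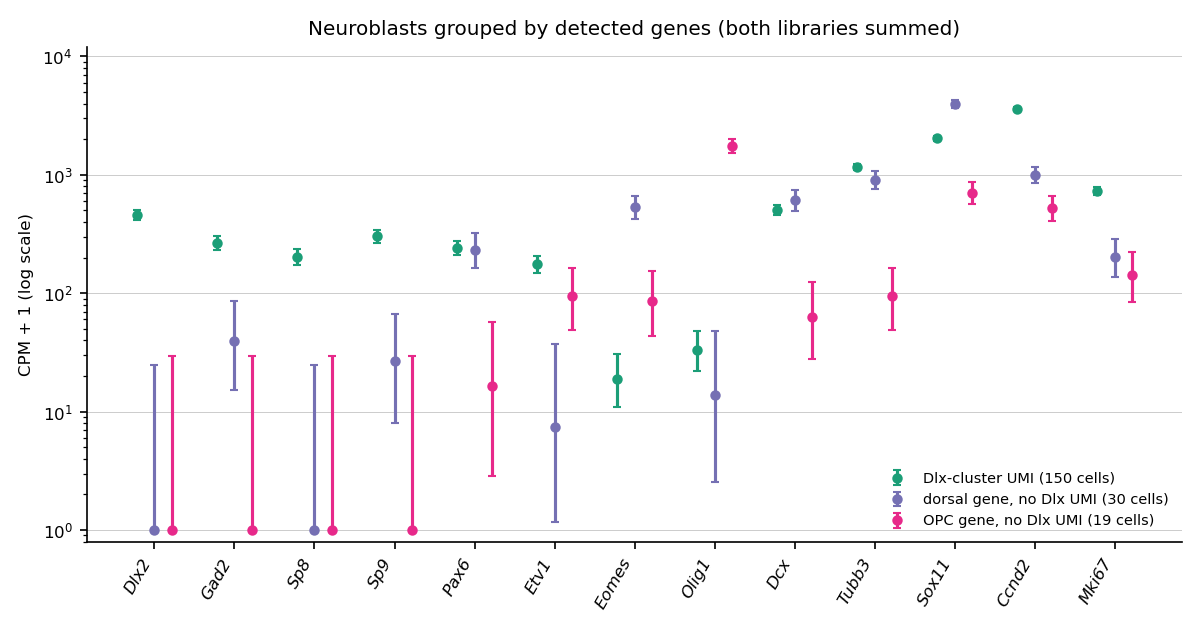
Level of 13 genes (CPM plus 1, log axis, with the exact 95% Poisson interval) in neuroblasts grouped by the UMIs they hold, both libraries summed: 150 cells with a Dlx UMI, 30 with a dorsal gene and no Dlx UMI, and 19 with an OPC gene and no Dlx UMI. Dlx2, Eomes and Olig1 help define the groups and 3 cells are in both of the last groups, while Dcx and Tubb3 are high in the first 2 groups and low in the last.

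OPCs are the other neural lineage that arises from this wall, and neuroblasts were compared with them directly, 81 and 123 cells against 68 and 34. Of the 15877 genes 1606 (10.1%) were called, 650 (4.09%) higher and 956 (6.02%) lower in neuroblasts. The Dlx list had 12 of 15 higher (median log2 difference 6.15), the cytoskeleton list 14 higher and 3 lower of 28 (median 1.22), and the transcription factor list 16 of 20 higher (median 2.14), against a median of -0.127 for all genes. Gad2, at 0 UMIs in OPCs, was at least 87.5-fold higher in neuroblasts and Sp8 at least 62.3-fold higher. Tubb3 was higher by 5.46 ± 0.25 on the log2 scale and Igfbpl1 by 6.20 ± 0.28. Stmn2, a microtubule regulator of growing axons, was at 733 and 399 CPM against 18.1 and 0 CPM. Dcx was shared more closely, with a log2 difference of 2.63 ± 0.33 (adjusted p = 1.27e-05).

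Of the OPC list, 7 were lower in neuroblasts and none higher (12 tested, median -3.90). Olig1, an oligodendrocyte lineage factor, was at 369 and 135 CPM against 759 and 1089 CPM (-2.06 ± 0.38), and Enpp2, a secreted enzyme of that lineage, at 0 and 1.3 CPM against 89 and 67 CPM. Sox10 was at 32.2 and 0 CPM against 189 and 200 CPM, a call that DESeq2 did not make (adjusted p = 0.0783). OPCs also carried more of some genes often read as neuronal. Gap43, a growth cone protein, was at 168 and 59 CPM in neuroblasts and 366 and 501 CPM in OPCs (-2.15 ± 0.32), a call lost when the other populations were dropped from the fit (adjusted p = 0.08), and Gria2 was lower in neuroblasts by 1.45 on the log2 scale. The S phase and the G2 and M phase lists had no gene called in either direction, with medians of -0.146 and 0.037. Mki67 was at 414 and 701 CPM in neuroblasts and 492 and 1152 CPM in OPCs (-0.54 ± 0.37, adjusted p = 0.445), and the ranges overlapped.

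Cycling progenitors, the dividing cells of the ependymal lineage (520 and 239 cells), gave a wider contrast. Of the 15877 genes 5610 (35.3%) were called, 1914 (12.1%) higher and 3696 (23.3%) lower in neuroblasts, so higher calls made up 34.1% of all calls. That share was 43.1% with DESeq2 size factors and 46.4% in DESeq2. All 15 Dlx list genes were higher (median 6.62), as were 26 of 28 cytoskeleton genes (median 2.62), against a median of -0.378 for all genes. Of 15 astroglial genes 11 were lower. Vim, the intermediate filament of radial glia, was at 765 and 508 CPM against 7750 and 8372 CPM (-3.93 ± 0.43), and Nes, the nestin gene, at 72 and 95 CPM against 284 and 575 CPM. Anxa3 was at least 113-fold lower.

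Some cell cycle genes were lower in neuroblasts than in cycling progenitors. The 28-gene G2 and M phase list had 10 lower and none higher (median -0.571). Of 25 S phase genes 5 were lower, a share near the 23.3% of all genes called lower, with a median of -0.378, the same as all genes. Cdk1, the mitotic kinase, was at 263 and 280 CPM against 674 and 637 CPM (-1.50 ± 0.19), and Ccnb2, whose promoter is printed above, at 89 and 83 CPM against 188 and 204 CPM (-1.46 ± 0.22). The D-type cyclins went different ways. Ccnd2 was at 2133 and 3238 CPM in neuroblasts against 220 and 304 CPM in cycling progenitors, the next highest population (3.13 ± 0.20, adjusted p = 5.18e-09). Ccnd3 was at 34.7 and 26.4 CPM in neuroblasts and lower than in cycling progenitors by 2.23 on the log2 scale. Ccnd1 differed between the neuroblast libraries, at 188 and 15.8 CPM, and was not called (-1.05 ± 0.60, adjusted p = 0.202). Cdkn1b (p27), a CDK inhibitor, was at 367 and 551 CPM against 160 and 188 CPM (1.17 ± 0.16).

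Genes of Notch signalling, by which neighbouring cells hold each other in the progenitor state, were mixed. Against the mean of the other populations 6 of 15 tested were higher and 4 lower (median -0.096). The ligand genes Dll1 and Dll3 were at 40 and 38 CPM and at 69 and 40 CPM, and Mfng, an enzyme that adds sugars to Notch receptors, at 45 and 53 CPM (8.51 on the log2 scale). The target Hes1 had 1 UMI in 204 cells, against 26 and 116 CPM in progenitors I, though its call was lost under several alternatives. The target Hes5 had 1 UMI in replicate 1 and 234 in replicate 2, or 2.48 and 309 CPM. The other cells of the same libraries were at 0.266 and 11.7 CPM. Only in replicate 2 did neuroblasts stand clearly above them, since the exact Poisson interval in replicate 1 was 0.063 to 13.8 CPM. Egfr, the receptor that marks transit-amplifying cells, was at 32 and 63 CPM and higher by 2.14 on the log2 scale.

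The deposited metadata also assign each cell 1 of 5 cell cycle classes. The S, S/G2 and G2/M classes are called dividing classes here, as a short name only. In replicate 1, 24 of 81 were G0, 10 G1, 8 S, 22 S/G2 and 17 G2/M, and in replicate 2 the counts were 54, 5, 14, 37 and 13 of 123. The S, S/G2 and G2/M classes together held 58.0% (exact 95% interval 46.5 to 68.9) and 52.0% (42.8 to 61.1). Cycling progenitors had 66.7% and 64.0% in these classes, and OPCs a mean of 83.8% (SD 22.9) over the libraries. Mid and late deuterosomal cells, which are on the way to multiciliated cells, had means of 97.1% and 94.3%. The class shares are therefore no count of dividing cells. The G2/M class held 21.0% (12.7 to 31.5) and 10.6% (5.75 to 17.4) of neuroblasts against 3.27% and 3.35% of cycling progenitors and 0 of 68 and 0 of 34 OPCs. A high G2/M share was not particular to neuroblasts. Its mean over the libraries was 15.8% in neuroblasts, 25.8% in microglia and 14.3% in late deuterosomal cells. Depth moved with class: the median was 3746.5 and 3618.5 UMIs in G0, 4076 and 4854 in G2/M, and 5005.5 and 8708 in S/G2. Among neuroblasts of at least 5000 UMIs, G2/M held 1 of 30 (3.33%) and 6 of 69 (8.70%), and the dividing classes 63.3% and 73.9%. The part of depth in the class shares was not tested.

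**Figure D4:**
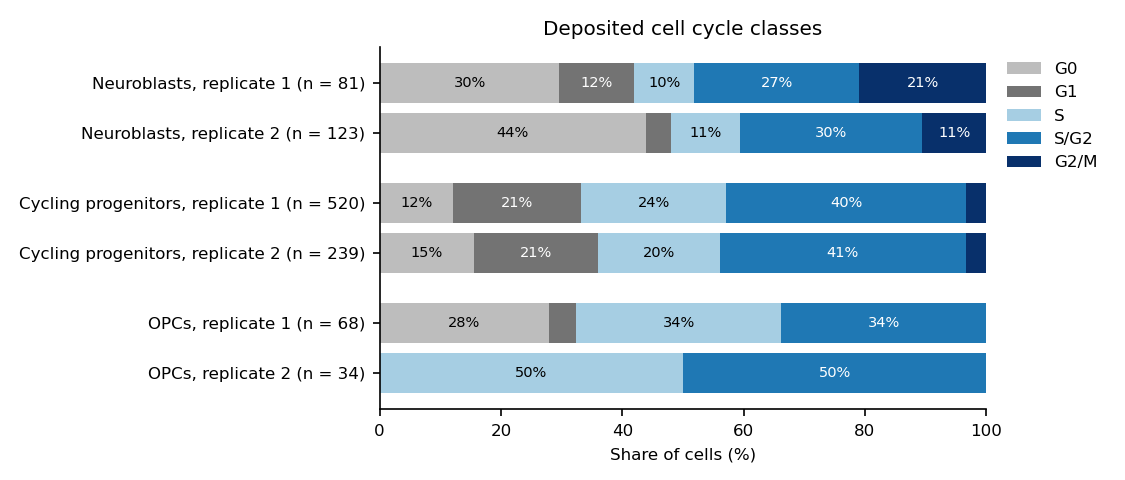
Share of cells (percent) in each of the 5 deposited cell cycle classes, stacked, for neuroblasts (81 and 123 cells), cycling progenitors (520 and 239) and OPCs (68 and 34), 1 bar per library. The S, S/G2 and G2/M classes make up 58.0% and 52.0% of neuroblasts. The G2/M class is 21.0% and 10.6% of neuroblasts against 3.27% and 3.35% of cycling progenitors.

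Neuroblasts of the dividing classes (47 and 64 cells) were compared with those of G0 and G1 (34 and 59). Of 15160 genes 425 (2.8%) were called, 359 (2.37%) higher and 66 (0.435%) lower, and the higher calls made up 84.5% of them, or 66.6% in DESeq2. Cell cycle genes presumably made the classes, so their difference is a description: the list for G2 and M phase had 26 of 28 higher (median 5.75) and that for S phase 6 of 25 (median 1.46). Mki67 was at 674 and 1072 CPM in the dividing classes against 12.6 and 15.1 CPM. Cenpe, a kinetochore motor, had 295 UMIs in dividing-class cells and none in the others (at least 53.6-fold), and Ccnb2 was at least 19.5-fold higher.

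Of the neuronal genes, Dcx, Tubb3, Sox11 and Gad2 were not called between these cells, while Dlx2 was (given below). On simulated counts this comparison recovered only 8% of 2-fold changes, so a gene not called may still differ. Dcx was at 380 and 374 CPM in the dividing classes and 371 and 704 CPM in G0 and G1 (-0.41 ± 0.33, adjusted p = 0.746). Tubb3 was at 1229 and 785 CPM against 1039 and 1114 CPM, Sox11 at 1536 and 2198 CPM against 1133 and 2969 CPM, and Gad2 at 176 and 222 CPM against 126 and 233 CPM. In each of these 4 genes the libraries of the groups overlapped, and none was called. Of the 28 cytoskeleton genes 1, Stmn1, was called higher and none lower, though the list's median was -0.357 and 25 of the 28 had lower mean CPM in the dividing classes. Of 20 transcription factors none was called in either direction (median -0.035), against a median of 0.011 for all genes. Of the transmitter receptor and channel genes 20 were tested and 2 were lower (median -2.16), Kcnd2 and Cacna2d1, a call that Cacna2d1 lost without the library block (adjusted p = 0.088). No synaptic gene was called (median -0.851).

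A few factors of the lineage were higher in the dividing classes. Dlx1 was at 453 and 547 CPM against 271 and 267 CPM (1.04 ± 0.28, adjusted p = 0.0403), and Dlx2 at 396 and 374 CPM against 195 and 271 CPM (0.79 ± 0.19, adjusted p = 0.0189). Pax6 was at 208 and 297 CPM against 94.4 and 128 CPM (1.32 ± 0.30, adjusted p = 0.0106), and Ccnd2 at 2520 and 3740 CPM against 1536 and 2311 CPM (0.82 ± 0.21, adjusted p = 0.0478). The calls of these 4 genes and of Stmn1 were lost without the library block, where the adjusted p was 0.153 for Dlx1, 0.136 for Dlx2, 0.117 for Pax6, 0.117 for Ccnd2 and 0.146 for Stmn1. DESeq2 with the block did not call Dlx1 (0.232), Dlx2 (0.202) or Ccnd2 (0.0598). The make-up of the classes, by the UMIs that cells held, differed as well. Cells with a Dlx UMI were 83.0% and 89.1% of the dividing classes and 55.9% and 59.3% of G0 and G1. This share counts the same UMIs as the Dlx levels, so it is no separate result. It also depends on depth, and the median was 4753 and 7697.5 UMIs in the dividing classes against 4274.5 and 3906 in G0 and G1. Cells with a dorsal gene and no Dlx UMI were 8.51% and 7.81% of the dividing classes and 11.8% and 28.8% of G0 and G1. The part of this make-up and of depth in the differences between the classes was not tested.

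The genes that were higher in G0 and G1 came from several programmes. Id2, a repressor of helix-loop-helix factors, was at 334 and 459 CPM in G0 and G1 against 167 and 97.6 CPM in the dividing classes (-1.60 ± 0.27, adjusted p = 0.000564). Foxp2 was at 94.4 and 56.5 CPM against 24.5 and 4.07 CPM, and the dorsal factor Neurod1 at 37.8 and 48.9 CPM against 4.1 and 2.0 CPM. Neurod1 was not called without the library block (adjusted p = 0.0675). Oligodendrocyte lineage genes were also on this side: Olig1 was at 869 and 361 CPM in G0 and G1 against 44.9 and 12.2 CPM (-4.52 ± 0.75, adjusted p = 0.0028), and Pdgfra, the growth factor receptor of OPCs, at 258 and 56.5 CPM against 8.2 and 6.1 CPM. The whole OPC list summed to 1788 and 640 CPM in G0 and G1 and to 98.0 and 85.4 CPM in the dividing classes. The cells with an OPC gene and no Dlx UMI numbered 11 and 8, and 1 of them in each library was of a dividing class. Their part in the other differences between the classes was not tested.

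**Figure D5:**
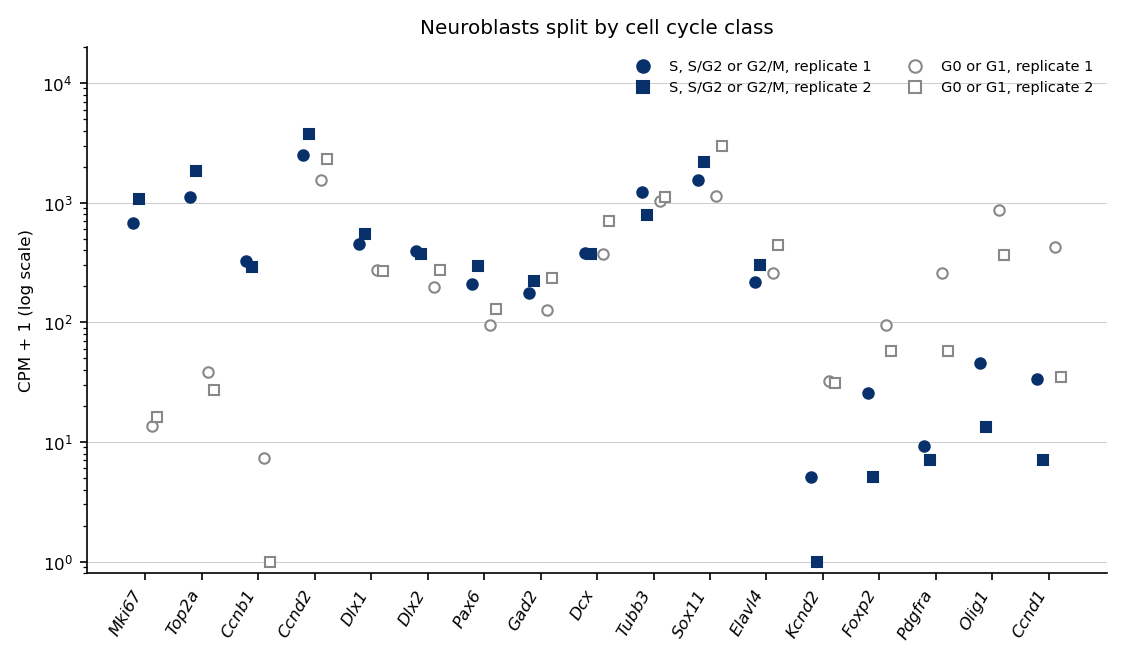
Level of 17 genes (CPM plus 1, log axis) in neuroblasts of the S, S/G2 and G2/M classes (filled) and of G0 and G1 (open), circles for replicate 1 and squares for replicate 2. Mki67, Top2a and Ccnb1 separate the classes widely, Dcx, Tubb3, Sox11 and Gad2 overlap, and Olig1 and Pdgfra are higher in G0 and G1.

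The last comparison set neuroblasts of the dividing classes beside cycling progenitors of the same classes. Of 15160 genes 4378 (28.9%) were called, 1355 (8.94%) higher and 3023 (19.9%) lower in neuroblasts, a higher share of 31.0% of calls that was 41.4% with DESeq2 size factors and 45.2% in DESeq2. All 15 Dlx list genes were higher (median 6.33), and 20 of 28 cytoskeleton and 17 of 20 transcription factor genes, against a median of -0.429 for all genes. In the G2 and M phase list 7 were lower and none higher (median -0.341), and in the S phase list 2 were higher and 2 lower (median -0.023). Mki67 was at 674 and 1072 CPM against 718 and 997 CPM (-0.21 ± 0.35, adjusted p = 0.701), so that the libraries overlapped. Cdk1 was at 417 and 423 CPM against 868 and 833 CPM (-1.24 ± 0.19), and Ccnd2 was higher in neuroblasts by 3.57 ± 0.22. Elavl4, an RNA-binding protein of neurons, was at 216 and 303 CPM against 1.67 and 5.88 CPM.

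Between the 2 neuroblast libraries no test was possible, since each stands for 1 substrain. Of 3914 genes with at least 50 UMIs over both, 137 (3.5%) differed by more than 2-fold. Higher in replicate 1 were Ccnd1 at 188 against 15.8 CPM and the OPC-lineage gene Lhfpl3 at 230 against 31.7 CPM. Higher in replicate 2 were Ptch1, the receptor for hedgehog proteins, at 62.1 against 12.4 CPM, and Hes5. The Hes5 difference was not particular to neuroblasts, since the other cells had 11.7 CPM in replicate 2 against 0.266 CPM in replicate 1. Xist, the RNA that silences an X chromosome in females, was at 2.48 CPM in replicate 1 and 445 CPM in replicate 2, and at 0.266 and 267 CPM in the other cells of those libraries. A difference between the libraries in the sex of the mice cannot be told apart from substrain here.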

How the data were processed

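The deposited table holds raw UMI counts of 32287 genes in 16401 cells, deposited by the authors. The submitters' processing notes name Cell Ranger 3, Cell Ranger 5.0.1 and the build mm10. The version behind each library, the naming and classing of cells and the treatment of doublets are not given in the sources used here, and no doublet caller was run. Count rows carry no names and were paired with the deposited gene metadata by order. Counts were summed per library and population, for 13 of 14 populations (fibroblasts had under 20 cells in a library and were left out), and CPM are these sums scaled to 1000000. The main test was edgeR 4.0.16 (quasi-likelihood, TMM, filterByExpr, library block) in R 4.3.3, with DESeq2 1.42.0 as an alternative. The series text calls the libraries duplicates of primary culture. With library as a block, p-values measure how far the differences between populations vary between these 2 libraries. That spread is estimated over all populations in the fit, not from the neuroblasts alone. Same-library sums deviated together (median r 0.184, lowest -0.00168, across genes), so the numbers mark a shared library. For neuroblasts with the other populations these correlations were weak (median r 0.0789, from 0.0293 to 0.118). On simulated counts, 4-fold changes were recovered in 86% of cases for neuroblasts against the other populations, 70% against OPCs, 86% against cycling progenitors, 46% between classes and 76% between dividing-class cells. For 2-fold changes the rates were 46%, 24%, 46%, 8% and 20% in the same order. The simulation gave all populations a common expression profile apart from the planted changes, so the rates need not hold for these data. Text genes were the 10 largest increases and 6 largest decreases at 50 CPM or more, plus up to 4 risers and 2 fallers of each list, from which the text takes a part, and subtype genes by list. Some list genes are counted but not reported by name here. Members and lists were chosen with earlier results of these data known. Thinning to 2500 UMIs, the cell groups and the fit without OPC-gene cells were chosen after seeing the data.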

Additional observations from a re-analysis of the deposited data

How the results depend on the processing

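Counts of called genes moved with depth, cell numbers, the populations in the fit and the test used. Against the other populations, 5781 calls became 3184 with 34 cells per population and library and 3357 with G0 and G1 neuroblasts only; higher calls fell to 1351 in the latter, and lower calls were 1395 with equal cells, 2026 after thinning to 5000 UMIs, 1521 after thinning to 2500 and 2006 with G0 and G1 cells only. Against OPCs, 1606 calls became 845 with only OPCs and neuroblasts in the fit (385 higher, 460 lower), 868 with equal cells (387 and 481), 865 after thinning to 5000 UMIs (389 and 476) and 987 after thinning to 2500 (450 lower), and higher calls were 393 with G0 and G1 cells. Against cycling progenitors, 5610 calls became 2233 with equal cells (988 higher, 1245 lower) and 3555 after thinning to 5000 UMIs (2259 lower). There the lower calls were 2175 after thinning to 2500 UMIs and the higher calls 1240 with G0 and G1 cells. Between classes, the 66 lower calls were 43 without the replicate block, 165 in DESeq2, 143 with no filter and 112 when other populations were dropped from the fit. Without the replicate block the total calls were 5400, 1235, 4724, 321 and 3721 for the 5 comparisons. Without neuroblasts holding an OPC gene UMI they were 5458, 1781 and 5217 for the first 3. At 5000 UMIs or more the neuroblast share was 0.260% and 1.63%, and the dividing classes held 73.9% in replicate 2. The log2 difference turned against the other populations with G0 and G1 cells only for Ccna2 (-0.084), Hmmr (-9.08), Mki67 (-0.996) and Ube2c (-0.84), without OPC-gene cells for Chrna4 (-3.81) and Olig2 (-0.12), and without replicate 1 for Cspg4 (-0.62, and 3.74 without replicate 2). Against cycling progenitors it turned for Mki67 after thinning to 5000 UMIs (0.0032) and without OPC-gene cells for Chrna4 (-3.86) and Olig2 (-1.76). Between classes it turned for Tubb3 without the replicate block (0.016), Dlx5 with only the 2 sides (-0.033) and Cacna2d1 without replicate 2 (0.019, and -3.37 without replicate 1), and between dividing-class cells for Mki67 with only the 2 sides (0.0049) and Egfr without replicate 2 (-0.49, and 1.72 without replicate 1). The cause was not tested. Of the other values for single genes, 2892 kept direction and side of the threshold, 195 lost the call and 4 gained it. Single libraries gave values with no test. Few UMIs per neuroblast limit genes below about 10 CPM.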
